A study of Mus musculus with 20 samples.

Results

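Liver tumours of exercised mice on a high-fat diet were compared with liver tumours of non-exercised mice on the same diet. The 8 libraries were taken by the sample titles, which give diet, exercise arm, tumour or non-tumour piece and mouse number: 4 tumour pieces of exercised and 4 of non-exercised mice, out of 20 liver libraries in all. All mice of both arms were male, wild type and of the strain that the labels spell C56BL/6, received 50 µL of 0.5% 7,12-dimethylbenz(a)anthracene (DMBA, a carcinogen) on the skin of the back at postnatal day 4 to 5, and ate a diet with 60 kcal% fat until they were killed at 35 weeks of age. From 20 weeks of age the exercised mice ran on a treadmill, with 5 weeks of training from 10 m/min upwards and, over the last 10 weeks, 5 weekly runs of 20 min at 18 m/min, while the non-exercised mice stayed in their cages in the same room. Mice of both arms were killed on 1 day, within 2 h of the last run, and kept on a cycle of 12 h light. The clock hour, the order of killing, and whether a piece is 1 nodule were not given in the labels, and an effect of the last run cannot be told apart from that of the training weeks. Non-tumour pieces of the same mice (8 libraries) were used to set the effect in tumours beside that in the surrounding liver. They also entered the fit that gave the p-values. So did 4 liver libraries of non-exercised mice on a diet with 12 kcal% fat, which received the same DMBA and were 35 weeks old too.

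The series title names circadian genes, E2F1 and c-Myc as its subject, and RNA, not protein, was measured here. In the mammalian clock, BMAL1 (listed as Arntl) pairs with CLOCK or NPAS2, binds E-boxes and switches on the Per and Cry genes, whose proteins repress the pair. The same pair switches on the nuclear receptors Nr1d1 and Nr1d2, which repress Arntl and Npas2, and the output factors Dbp, Tef and Hlf, which bind D-boxes in genes of liver metabolism. In liver the clock times the use of glucose, amino acids and lipids, and glucocorticoids and food are known to set its phase.

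Total counts lay between 18171377 and 19824518 in the tumours of non-exercised mice and between 19240957 and 20271948 in those of exercised mice, and 1 CPM, a count scaled to the library's effective total, stood for 16.5 to 21.5 counts. The label of tumour was checked against 28 measured tumour and oncofetal markers, whose summed level was 1620 to 4580 CPM and 1570 to 5210 CPM in the tumours of the arms, against 550 to 1050 and 418 to 1110 CPM in their non-tumour pieces. Hepatocyte identity genes summed to 139000 to 308000 CPM in the 8 tumours. Albumin (Alb) took 12.8% ± 2.81 of counts in the tumours of non-exercised and 13.1% ± 2.03 in those of exercised mice (SD, n = 4 each, exact permutation test, two-sided, p = 0.857, where 0.0286 is the smallest p that 4 against 4 can give). Of 6 pancreas markers Cpa1, Pnlip and Ctrb1 were at 0 in all 8 tumours and Cela1 alone passed the filter on low counts, with list sums of 22.5 to 52.5 and 36.3 to 115 CPM in the arms, and the muscle actin Acta1 was at 0 in all 8. Gene counts per list below are over the members that passed that filter. Some genes, such as Pck1 and Per1, are on more than 1 list, so lists that share members are not independent. In bulk tissue, fewer cells of a type and less RNA per cell cannot be told apart.

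Few transcripts passed the threshold in tumours, and 2 of the 3 that did belong to the clock lists. The clock repressor Cry2, the D-box factor Tef and Cd300lg, a CD300 family receptor of capillary endothelium, rose in tumours of exercised mice, and no gene fell. They are 3 of 14428 genes tested, 0.0208% of them, at a Benjamini-Hochberg adjusted p under 0.05 from the quasi-likelihood test of edgeR. At an unadjusted p under 0.05, 769 genes were higher, 5.33%, and 483 lower, 3.35%. All 4 exercised tumours lay above all 4 non-exercised tumours for 328 genes, 2.27%, and below them for 214 genes, 1.48%. Counts of gene lists below are to be read against these shares, and the median log2 fold change of all genes was 0.01. In the text, log2 fold changes are exercised minus non-exercised with their SE, and levels are CPM of mice 1 to 4 in that order.

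Cry2 lies on chromosome 2 at 92233991 to 92264388 on the minus strand of GRCm39. Its level was 14.8, 17.8, 17.6 and 19.3 CPM in the tumours of non-exercised mice and 26.2, 27.9, 22.8 and 29.6 CPM in those of exercised mice. Every exercised tumour stood above every non-exercised tumour, and the log2 fold change was 0.62 ± 0.09 (adjusted p = 0.0232, edgeR). Tef (chromosome 15, 81686622 to 81711064, plus strand) was at 12.4, 20, 34.3 and 24.1 CPM without and at 73.4, 65.9, 54.8 and 55.4 CPM with exercise. The lowest exercised tumour exceeded the highest non-exercised tumour, at 1.45 ± 0.24 (adjusted p = 0.0423, edgeR). Cd300lg (chromosome 11, 101932335 to 101946446, plus strand) was at 9.78, 10.1, 14.7 and 11 CPM against 22, 19.7, 17.9 and 20.2 CPM, again without overlap, at 0.81 ± 0.13 (adjusted p = 0.0423, edgeR). Markers of sinusoidal endothelium summed to 306 to 538 CPM and 391 to 565 CPM in the arms, with 10 of 12 above 0 in log2 fold change, a median of 0.20 and none at an unadjusted p under 0.05, but 4 without non-exercised tumour 3. Those of vascular endothelium had 9 of 11 above 0, none at an unadjusted p under 0.05 and summed levels of 241 to 374 and 266 to 398 CPM. Of these 3 were higher without non-exercised tumour 3 and without exercised tumour 3, and 1 without exercised tumour 2. The part of endothelial cells in the difference of Cd300lg was not tested.

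The number of calls moved with the fit and with single libraries. With only the 8 tumours in the fit, no gene passed (adjusted p = 0.593 for all 3, 809 genes at an unadjusted p under 0.05), whereas DESeq2 called 79 genes, 61 higher and 18 lower, among them these 3. Without exercised tumour 3, edgeR called 41 genes, 39 of them higher, and without non-exercised tumour 3 it called 31, 27 of them higher. Without any 1 of non-exercised tumours 1 and 2 and exercised tumours 1 and 2 it called none. Without exercised tumour 4 it called 1, Slc2a5, and none of Cry2, Tef and Cd300lg. Without non-exercised tumour 4 it called 2, Cry2 and Cyp2d41-ps. The calls in tumours also moved with non-tumour libraries. None was left without non-exercised non-tumour piece 1, 2 or 4 or exercised non-tumour piece 2 or 4. Only Cry2 was called without non-exercised non-tumour piece 3. Leaving out exercised non-tumour piece 1 gave 5 calls, and leaving out piece 3 gave 11. Cry2 kept an adjusted p under 0.05 in 12 of 24 alternatives, Cd300lg in 7 and Tef in 6, and each kept its direction in all 24.

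The promoters of 4 clock genes are shown because the tumour values of Cry2 and Tef passed the threshold, Ciart and Per3 lie among the clock genes with higher levels, and the clock is known to act through short motifs. Each is the 250 bases before the start site in RefSeq on GRCm38.p6, another build than that of the counts, written 5′ to 3′ along the gene with some motifs in capitals. The motifs searched, on both strands, were the E-box CACGTG, the D-box TTATGTAA or TTACGTAA, and AGGTCA, to which ROR and REV-ERB receptors bind. No match overlapped another, and capitals mark only the E-boxes and D-boxes. Ciart is at chr3:95882229-95882478 on the minus strand, Tef (the first of 2 listed start sites) at chr15:81802423-81802672 on the plus strand, Per3 at chr4:151044666-151044915 and Cry2 at chr2:92434070-92434319, both on the minus strand.
Ciart: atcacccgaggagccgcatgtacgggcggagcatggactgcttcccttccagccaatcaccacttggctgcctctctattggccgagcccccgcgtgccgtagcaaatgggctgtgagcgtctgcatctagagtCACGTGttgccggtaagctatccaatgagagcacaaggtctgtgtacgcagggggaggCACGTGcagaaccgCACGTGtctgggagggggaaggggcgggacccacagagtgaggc
Tef: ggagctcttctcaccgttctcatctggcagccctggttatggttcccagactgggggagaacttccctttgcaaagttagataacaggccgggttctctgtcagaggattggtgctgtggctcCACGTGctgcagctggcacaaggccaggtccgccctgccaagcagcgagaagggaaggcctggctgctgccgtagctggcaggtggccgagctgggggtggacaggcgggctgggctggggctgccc
Per3: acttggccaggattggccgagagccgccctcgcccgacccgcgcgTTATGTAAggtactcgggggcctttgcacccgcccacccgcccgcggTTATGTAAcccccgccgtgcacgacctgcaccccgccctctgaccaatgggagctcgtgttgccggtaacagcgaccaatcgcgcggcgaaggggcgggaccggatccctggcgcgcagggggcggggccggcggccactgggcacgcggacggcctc
Cry2: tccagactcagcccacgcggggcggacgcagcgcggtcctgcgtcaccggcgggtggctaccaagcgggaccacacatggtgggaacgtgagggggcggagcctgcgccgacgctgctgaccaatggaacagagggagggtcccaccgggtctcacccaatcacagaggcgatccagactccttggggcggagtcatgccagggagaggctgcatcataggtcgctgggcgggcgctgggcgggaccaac
The Ciart window holds 3 E-boxes, that of Tef 1 (as does the window of its second start site), and that of Per3 holds 2 D-boxes. The window of Cry2 holds none of the motifs searched. Among all 32851 RefSeq windows of 300 bases, reaching 50 bases past the start, 7.15% hold the E-box, 1.06% the D-box and 16.3% AGGTCA. Of the 33 genes of the clock and output lists 26 had a window, and 6 of these hold an E-box, 1 a D-box and 7 AGGTCA. A gene counts here if any of its windows holds the motif, so these counts and the shares of single windows are unlike measures. Of the 14 that were higher at an unadjusted p under 0.05, 4 hold an E-box, 1 a D-box and 3 AGGTCA. Of the 5 that were lower, 1 holds an E-box, 0 a D-box and 3 AGGTCA. Ciart holds the most E-boxes and Per3 the only D-boxes of these genes. The windows of Dbp, Nr1d1, Nr1d2 and Usp2, which were higher, hold no E-box or D-box. A match is a description of the letters, and none of these data bear on binding.

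Most repressors of the clock and its output factors were higher, and Arntl, Npas2, Clock and Cry1 lower, in tumours of exercised mice. Of 19 clock genes measured, 1 passed (Cry2). At an unadjusted p under 0.05, 8 were higher and 4 lower, and 8 and 3 did not overlap between the arms. In log2 fold change 13 of 19 were above 0, with a median of 0.12. Of 14 output genes 1 passed (Tef), 7 were higher and 1 lower at an unadjusted p under 0.05, 12 were above 0, and the median was 0.71 (1.32 without non-exercised tumour 3 and between 0.486 and 0.774 without each other tumour). Without exercised tumour 1, the clock list had 7 higher and 2 lower. DESeq2 called 6 clock genes higher (Cry2, Ciart, Per1, Per3, Nr1d1 and Nr1d2) and 1 lower (Npas2), and 4 output genes higher (Tef, Dbp, Usp2 and Alas1).

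Among the repressors, Nr1d1, which encodes REV-ERB alpha, was at 24.2, 41.7, 37.2 and 38.5 CPM without and at 112, 96.4, 55.3 and 70.1 CPM with exercise, at 1.24 ± 0.25 (adjusted p = 0.095, edgeR). The arms did not overlap, and exercised tumour 3 was the lowest of its arm. Its paralogue Nr1d2 was at 20.8, 46.6, 44 and 31.7 CPM against 83.2, 74.7, 59.1 and 69.5 CPM, also apart, 2-fold higher with a 95% interval of the log2 fold change from 0.58 to 1.42 (adjusted p = 0.0816). Per1, a period gene that glucocorticoids also induce, was at 13.7, 16.5, 18.4 and 12.3 CPM against 45.5, 35.7, 18.5 and 39.8 CPM, at 1.20 ± 0.27 (adjusted p = 0.137). Exercised tumour 3 was thus barely above non-exercised tumour 3, the highest of that arm, while the rest of the exercised arm stood well above it. The arms did not overlap. Per2 was at 13.2, 20.5, 10.1 and 16.3 CPM against 26.8, 23.9, 22.6 and 29 CPM (0.77 ± 0.21, adjusted p = 0.276), and Per3 at 2.7, 7.23, 4.69 and 4.81 CPM against 22.6, 9.94, 10.1 and 10.6 CPM (1.45 ± 0.31, adjusted p = 0.111). Neither overlapped, and exercised tumour 1 held the highest Per3. Ciart, which encodes a repressor of CLOCK and BMAL1, was under 1 CPM in all 4 non-exercised tumours (0.0562 to 0.279 CPM) and at 5.81, 3.43, 0.451 and 1.95 CPM in the exercised ones, at 3.97 ± 0.86 (adjusted p = 0.112), and rests on few counts. Cry1, by contrast with Cry2, was at 26.5, 14.4, 17.7 and 22.6 CPM against 4.54, 6.11, 14.5 and 16.8 CPM, with overlap, at -0.95 ± 0.35 (adjusted p = 0.438).

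In the positive limb, Npas2 was at 32, 21, 13.8 and 25.2 CPM without and at 2, 7.71, 10.3 and 10.2 CPM with exercise, at -1.60 ± 0.41 (adjusted p = 0.21, edgeR). Arntl (Bmal1) was at 43.8, 30.2, 27.6 and 37.3 CPM against 5.75, 17.4, 21.3 and 26.7 CPM (-0.96 ± 0.38, adjusted p = 0.483). Neither gene overlapped between the arms, and exercised tumour 1 was the lowest in both. Clock itself differed less, at 59.1, 63.9, 62 and 62.1 CPM against 30.5, 52.8, 55.7 and 59 CPM (-0.32 ± 0.14, adjusted p = 0.543), with exercised tumour 1 again lowest. Without that tumour Clock was at -0.145, Arntl at -0.67 and Npas2 at -1.29.

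Of the output factors, Dbp was at 3.65, 9.44, 6.55 and 6.41 CPM without and at 111, 30.8, 24.9 and 25.4 CPM with exercise, at 2.88 ± 0.52 (adjusted p = 0.0634, edgeR). The arms did not overlap, exercised tumour 1 stood far above the others, and without it the value was 2.05. Hlf, the third factor of the Dbp family, was at 16.3, 23.9, 30.2 and 31 CPM against 31.3, 35.7, 40.8 and 36.1 CPM (0.50 ± 0.14, adjusted p = 0.28). Nfil3, which represses through the same D-boxes, was at 30.1, 21.3, 38.6 and 32.8 CPM against 10.9, 27.3, 23.1 and 27.4 CPM (-0.47 ± 0.22, adjusted p = 0.579), with overlap. Usp2, a rhythmic deubiquitinase, was at 0.787, 1.03, 1.12 and 1.09 CPM against 3.27, 4.11, 4.05 and 3.27 CPM (1.86 ± 0.42, adjusted p = 0.119), and the arms were well apart. Alas1, the first enzyme of heme synthesis, was at 1.52 ± 0.42 (adjusted p = 0.278), Por, the electron donor of cytochrome P450 enzymes, at 0.97 ± 0.26 (0.248), and Lpin1, a phosphatidate phosphatase, at 1.76 ± 0.52 (0.325). Lpin1 was at 106, 140, 112 and 107 CPM against 575, 500, 150 and 344 CPM, so that exercised tumour 3 was close to the non-exercised arm.

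**Figure D1:**
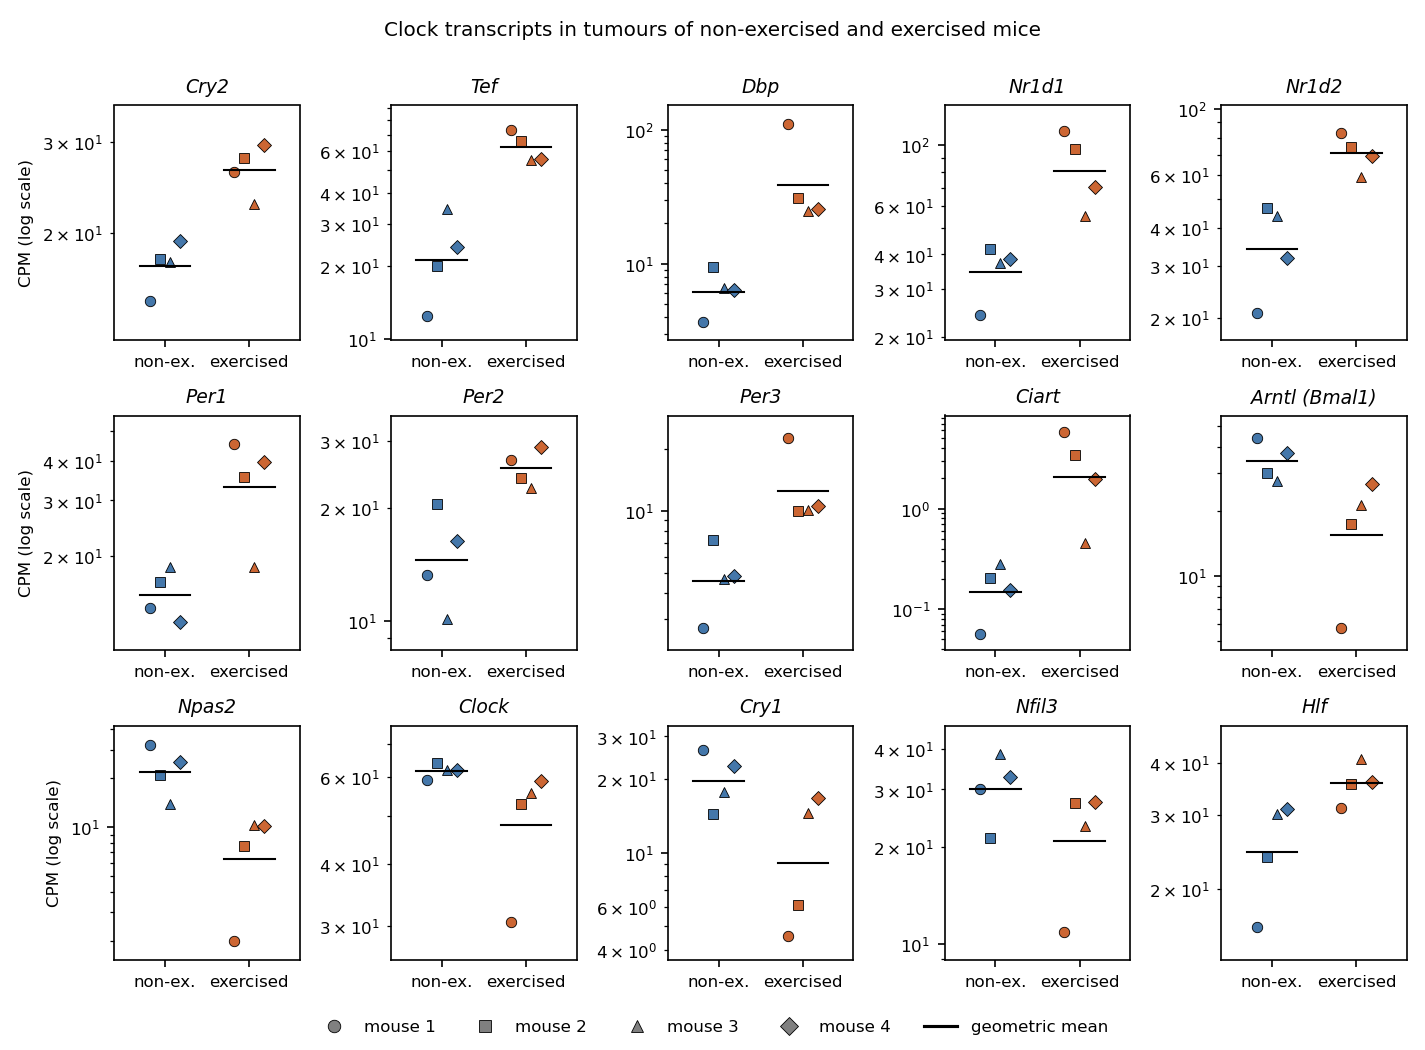
Levels of 15 clock and output transcripts in 4 tumours of non-exercised (blue) and 4 of exercised mice (orange), in CPM on log axes. Symbols give the mouse number and bars the geometric mean. Tef was 12.4 to 34.3 CPM without and 54.8 to 73.4 CPM with exercise, and exercised mouse 1 had the highest Dbp (111 CPM) and the lowest Arntl (5.75 CPM).

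In the non-tumour pieces of these mice the clock lists held as many or more genes that were higher. There 2 genes passed, 0.0139% of those tested, Usp2 (2.96 ± 0.39) and Mbd1, a reader of methylated DNA (1.27 ± 0.20). At an unadjusted p under 0.05, 3.99% of genes were higher and 4.35% lower. Against these shares, 8 of 19 clock genes were higher and 2 lower, and 9 of 14 output genes were higher and 1 lower. Dbp was at 2.38 ± 0.50 there, Per1 at 1.07 ± 0.27, Per3 at 1.47 ± 0.31 and Npas2 at -1.86 ± 0.44. Tumour and non-tumour pieces come from the same mice, so these are not separate animals. Cry2 was at 0.30 ± 0.09 there, and its levels were 24.3, 25.1, 22 and 24.7 CPM in non-exercised and 29.7, 30.1, 28.3 and 30.5 CPM in exercised non-tumour liver. In levels, Cry2 of exercised tumours was thus nearer to that of non-tumour liver than was Cry2 of non-exercised tumours.

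Whether exercise acted differently in tumours was tested by the interaction of exercise and tumour, in which no gene passed (0% of those tested, smallest adjusted p = 0.99998, edgeR). At an unadjusted p under 0.05 there were 293 genes, 2.03%, and no gene passed with DESeq2 or voom either. The interaction was 0.31 ± 0.13 for Cry2, 0.68 ± 0.19 for Cd300lg, which was at 0.12 ± 0.13 in non-tumour pieces, and -1.10 ± 0.57 for Usp2. The 6 smallest p belonged to Pdgfd, a growth factor of the PDGF family (1.32 ± 0.35), Shoc2, a scaffold of RAS signalling (-0.42 ± 0.11), Cd300lg, Hells, a chromatin remodeller (-1.25 ± 0.35), B4galt4, a galactosyltransferase (1.13 ± 0.32), and the cell cycle kinase Cdk2 (-0.46 ± 0.14).

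**Figure D2:**
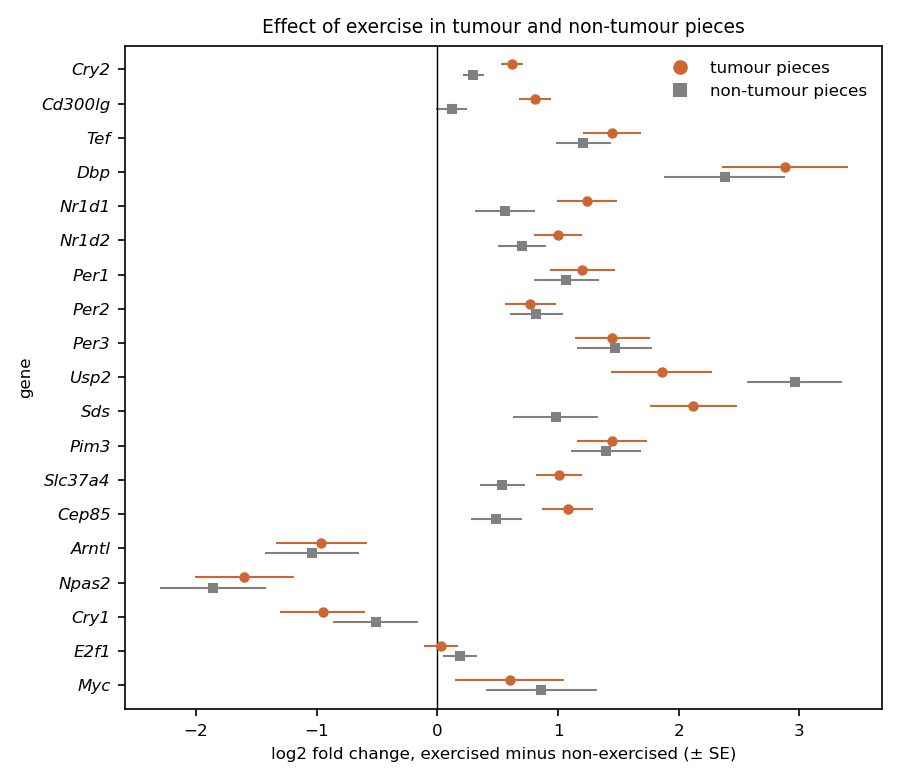
Log2 fold changes, exercised minus non-exercised, with SE, in tumour pieces (orange circles) and non-tumour pieces (grey squares) of the same mice, 4 libraries a group. Dbp was at 2.88 and 2.38 and Npas2 at -1.60 and -1.86 in the 2 kinds of piece. Cd300lg was at 0.81 and 0.12.

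The 20 genes of smallest p in tumours were taken among genes with a mean of at least 1 CPM, leaving out clone names and provisional symbols. Of these, 3 outside the clock act in sugar or amino acid metabolism, a grouping made after their values were seen. Sds, the serine dehydratase that feeds serine into gluconeogenesis, was at 45.5, 27.3, 65.7 and 60.5 CPM without and at 348, 253, 107 and 159 CPM with exercise. The arms were apart, at 2.12 ± 0.36, just short of the threshold (adjusted p = 0.0508, edgeR). Slc37a4, the transporter of glucose 6-phosphate into the endoplasmic reticulum, was at 38.5, 50.2, 67.2 and 59.1 CPM against 135, 114, 82.9 and 102 CPM (1.01 ± 0.19, adjusted p = 0.07). Slc2a5, the fructose transporter, was at 1.18, 1.9, 1.67 and 1.24 CPM against 7.86, 5.94, 2.95 and 1.69 CPM (1.61 ± 0.34, adjusted p = 0.111), with exercised tumour 4 inside the range of the other arm.

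The other genes among these 20 were higher as well. Pim3, a serine/threonine kinase, was at 1.45 ± 0.29, Csrnp1, a nuclear protein, at 1.09 ± 0.20, and Cep85, a centrosomal protein, at 1.08 ± 0.21. The ER cargo receptor Cln8 was at 0.78 ± 0.15, the sialic acid enzyme Gne at 0.63 ± 0.13, Zfp276 at 0.61 ± 0.11 and the ubiquitin ligase adaptor Klhl21 at 0.59 ± 0.12. Smaller still were Cyth1, an exchange factor for ARF proteins (0.51 ± 0.10), the splicing factor Srsf4 (0.51 ± 0.10), Nrbp2 (0.50 ± 0.10) and Ifrd2 (0.35 ± 0.07). Adjusted p lay between 0.0634 and 0.101 for these 11 genes in edgeR, and they missed the threshold.

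Transcripts of cell division had lower levels in tumours of exercised mice throughout a list, with no single gene past the threshold. Of 25 genes of G2 and mitosis, 0 passed, 14 were lower and 0 higher at an unadjusted p under 0.05, 10 did not overlap between the arms, and all 25 were below 0 in log2 fold change, from -1.07 to -0.31. Their median was -0.89, against 0.01 over all genes. Such genes are transcribed together in dividing cells, so the 25 values are not independent. DESeq2 called 1 of them lower, Kif11. Their summed level was 412, 503, 259 and 323 CPM without and 229, 279, 134 and 210 CPM with exercise, and the arms overlapped by 1 tumour, exercised tumour 2 above non-exercised tumour 3.

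Kif11, the motor that separates spindle poles, was at 13.3, 14.3, 9.52 and 9.82 CPM without and at 6.05, 6.05, 4.51 and 6.53 CPM with exercise, at -1.02 ± 0.26 (adjusted p = 0.205, edgeR). The highest exercised tumour was below the lowest non-exercised tumour. Top2a, a topoisomerase of dividing cells, was at 32.4, 43, 27.6 and 29.9 CPM against 17.2, 20.8, 11.9 and 21.8 CPM (-0.89 ± 0.34, adjusted p = 0.454), again apart. Mki67, the proliferation marker Ki-67, was at 74.2, 98.5, 44.6 and 59.5 CPM against 43.9, 50.3, 25.3 and 37.6 CPM (-0.82 ± 0.40, adjusted p = 0.589), with overlap. Ube2c, which marks mitotic cyclins for destruction, was at -0.91 ± 0.28 (0.341), the kinase Aurka at -0.91 ± 0.31 (0.416), the midzone protein Prc1 at -1.02 ± 0.38 (0.442) and Cdk1 at -0.93 ± 0.38 (0.503).

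In non-tumour pieces the same list had a median of -0.19 and no gene at an unadjusted p under 0.05, at summed levels of 28.3 to 91.4 CPM and 30 to 91.5 CPM. For 3 of the 25 genes the interaction was at an unadjusted p under 0.05 (2.03% of all genes), and for none after adjustment. The count of 14 became 6 without non-exercised tumour 2 and to 6 without exercised tumour 3, and stood between 10 and 19 without any other tumour, while the median stayed between -1.04 and -0.715.

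**Figure D3:**
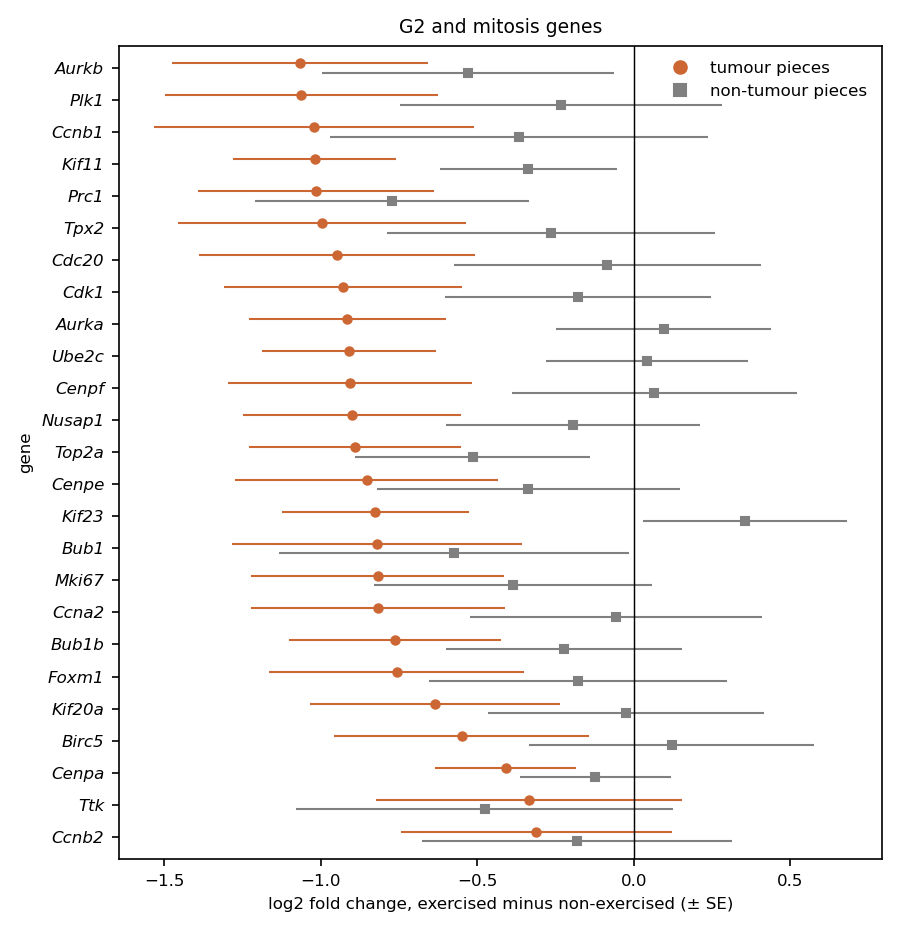
Log2 fold changes with SE of the 25 measured genes of G2 and mitosis, exercised minus non-exercised, in tumours (orange circles) and non-tumour pieces (grey squares). All 25 values of tumours lie below 0, with a median of -0.89, and those of non-tumour pieces lie on both sides, with a median of -0.19.

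Genes of S phase differed less. Of 32 measured, 0 passed, 4 were lower and 0 higher at an unadjusted p under 0.05, 29 were below 0 and the median was -0.22. The 4 included the helicase subunit Mcm4 (-0.42 ± 0.17, adjusted p = 0.483, edgeR), while the clamp Pcna was at -0.06 ± 0.10. Without non-exercised tumour 2 the count was 0, and without exercised tumour 1 it was 1.

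The transcripts of E2F1 and c-Myc did not pass. E2f1 was at 5.11, 7.08, 5.9 and 6.46 CPM without and at 6.11, 6.97, 6.46 and 5.53 CPM with exercise, at 0.03 ± 0.14 (adjusted p = 0.972, edgeR). The arms overlapped fully, and the 95% interval of the log2 fold change ran from -0.27 to 0.33. Among 13 E2F and RB family genes 0 passed and 2 were lower at an unadjusted p under 0.05, the activator E2f2 (-0.65 ± 0.28) and E2f4 (-0.21 ± 0.10). That count was 0 without non-exercised tumour 2, exercised tumour 1 or exercised tumour 2, and 1 without non-exercised tumour 1. Myc was at 3.65, 8.52, 9.01 and 5.43 CPM without and at 12.3, 11.8, 6.71 and 9.85 CPM with exercise, at 0.60 ± 0.45 (adjusted p = 0.74), with overlap and an interval from -0.36 to 1.56. Its relative Mycn was at 7.64, 11.5, 6.74 and 7.96 CPM against 3.51, 3.31, 9.96 and 4.37 CPM (-0.67 ± 0.43, adjusted p = 0.68), with exercised tumour 3 alone in the range of the other arm. Of 11 genes of the Myc network none was at an unadjusted p under 0.05. Of 26 Myc targets of ribosome biogenesis 1 was higher and none lower at that p, Gnl3, a nucleolar GTPase (0.23), and of 18 ubiquitin ligase parts and deubiquitinases 1, the deubiquitinase Usp2, was higher.

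Targets of the glucocorticoid receptor had higher levels in tumours of exercised mice. Of 17 measured, 0 passed, 11 were higher and 0 lower at an unadjusted p under 0.05, 17 were above 0, 3 did not overlap, and the median was 0.915. The metallothionein Mt2, a metal-binding protein, was at 11.3, 17.2, 12.7 and 13.9 CPM without and at 186, 233, 9.46 and 49.2 CPM with exercise (3.11 ± 0.93, adjusted p = 0.329, edgeR). Mt1 was at 36.7, 48.4, 29.8 and 43.2 CPM against 293, 307, 23.7 and 92.9 CPM (2.18 ± 0.77, adjusted p = 0.424). For both genes exercised tumour 3 was below all 4 non-exercised tumours and the other three were above them.

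Fkbp5, a chaperone of the receptor, was at 38, 38.3, 29.3 and 35.5 CPM against 106, 165, 28.1 and 68.4 CPM (1.38 ± 0.52, adjusted p = 0.451, edgeR), and the transcription factor Zbtb16 at 13.7, 10.9, 8.41 and 11.9 CPM against 46.8, 81.8, 7.26 and 20 CPM (1.79 ± 0.81, adjusted p = 0.553). Exercised tumour 3 was again the lowest of all 8. Klf9, a transcription factor, was at 62.3, 88.3, 96.1 and 67.4 CPM against 189, 134, 118 and 112 CPM (0.82 ± 0.19, adjusted p = 0.137), where the arms did not overlap. The non-tumour piece of exercised mouse 3 was likewise low, with Mt1 at 7.97 CPM against 77.6, 125 and 101 CPM in the other exercised mice. Leaving out 1 tumour gave 8 to 11 higher genes, and DESeq2 called 4 (Pck1, Per1, Sgk1 and Klf9). In non-tumour pieces 10 of the 17 were higher and 0 lower, with a median of 0.62.

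**Figure D4:**
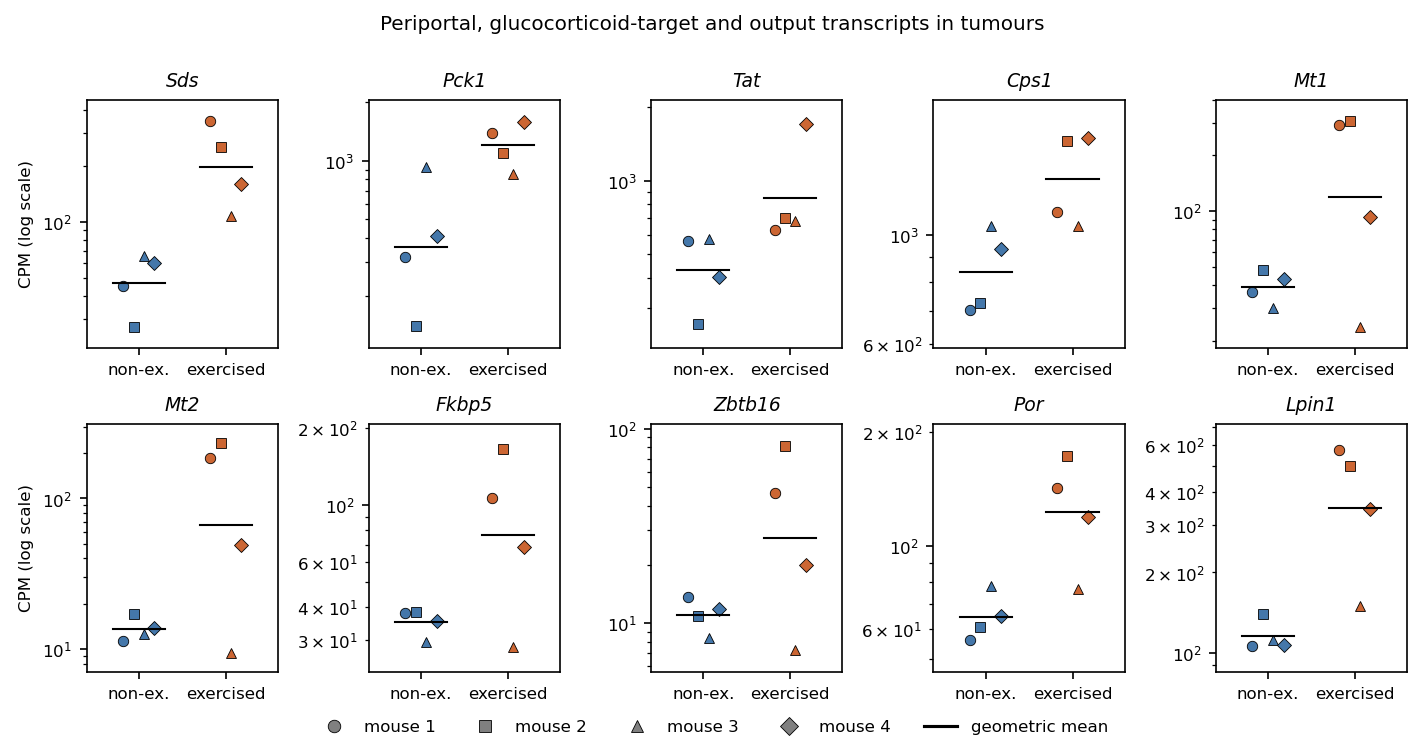
Levels of 10 transcripts of amino acid and glucose metabolism, glucocorticoid response and clock output in 4 non-exercised (blue) and 4 exercised tumours (orange), in CPM on log axes, with geometric means as bars. Exercised mouse 3 (triangle) was at 23.7 CPM of Mt1 and 9.46 CPM of Mt2, below the non-exercised arm, and Sds was at 107 to 348 CPM with and 27.3 to 65.7 CPM without exercise.

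Periportal genes, which handle ammonia and make glucose, had higher levels as well. Of 13 measured, 0 passed, 7 were higher and 0 lower at an unadjusted p under 0.05, 3 did not overlap, 12 were above 0, and the median was 0.50. Besides Sds they include Arg1, the arginase of the urea cycle, at 485, 539, 777 and 817 CPM against 1080, 1040, 883 and 998 CPM (0.61 ± 0.16, adjusted p = 0.205, edgeR), with the arms apart. Pck1, the rate-limiting enzyme of gluconeogenesis, was at 317, 140, 924 and 409 CPM against 1390, 1090, 851 and 1590 CPM (1.46 ± 0.38, adjusted p = 0.223). Non-exercised tumour 3 was inside the exercised range, and without it Pck1 was at 2.08 (adjusted p = 0.0129). Cps1, which makes carbamoyl phosphate for urea, was at 704, 727, 1040 and 936 CPM against 1110, 1550, 1040 and 1570 CPM (0.63 ± 0.21, adjusted p = 0.408). The glutaminase Gls2 was at 0.66 ± 0.22 (0.392). DESeq2 called 3 genes of the list, Sds, Arg1 and Pck1. Of these, Pck1 is also on the lists of glucocorticoid receptor targets and of gluconeogenesis. Non-tumour pieces had 5 of the 13 higher and 0 lower at an unadjusted p under 0.05, with a median of 0.35.

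Of 17 genes of gluconeogenesis and fasting 4 were higher and 0 lower at an unadjusted p under 0.05, with a median of 0.12. They included the transcription factor Foxo1 (0.66 ± 0.21, adjusted p = 0.383, edgeR) and the coactivator Ppargc1a (0.52 ± 0.18, adjusted p = 0.423). The count was 2 without exercised tumour 4. Of 18 hepatocyte identity genes 4 were higher, 4 did not overlap and 17 were above 0 (median 0.25), among them Tat, a tyrosine aminotransferase (1.04 ± 0.33, 0.364), and Tdo2, a tryptophan dioxygenase (0.43 ± 0.14, 0.398). Without non-exercised tumour 3 the count was 7. Non-tumour pieces had 5 hepatocyte identity genes higher and 0 lower, with a median of 0.21. Alb (0.16 ± 0.22) and the transferrin gene Trf (0.27 ± 0.26) overlapped. Of 17 xenobiotic genes 4 were higher, with a median of 0.33, and in non-tumour pieces 6 were higher and 0 lower, with a median of 0.42. The receptor Nr1i2 was at 0.63 ± 0.15 (0.152), and Cyp2b10, a cytochrome P450, at 0.169, 0.205, 0.0929 and 0.258 CPM against 0.605, 5.48, 0.1 and 2.95 CPM (3.61 ± 1.36, adjusted p = 0.453), with few counts and with exercised tumour 3 as low as the other arm.

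Respiratory genes differed by small amounts in 1 direction. All 20 nuclear-encoded genes of oxidative phosphorylation were above 0, with a median of 0.16, and 5 were higher at an unadjusted p under 0.05, among them the complex I subunit Ndufs3 (0.24 ± 0.07, adjusted p = 0.292, edgeR). That count moved between 1 and 10 when 1 tumour was left out, lowest without non-exercised tumour 2 and highest without non-exercised tumour 3. It was 2 without non-exercised tumour 1 and exercised tumours 2 and 3 each, 3 without non-exercised tumour 4 and 8 without exercised tumour 1. Of 6 mitochondrially encoded genes measured, out of 9 listed, 5 were higher, with a median of 0.40, such as mt-Co1 (0.36 ± 0.16, 0.54) and mt-Cytb (0.46 ± 0.17, 0.453). That count was 0 without non-exercised tumour 1 and without non-exercised tumour 2, 2 without exercised tumour 1, and 1 without exercised tumour 2 or 3. The share of all counts from mitochondrial genes was 3.3% ± 0.752 without and 3.97% ± 0.521 with exercise (SD, n = 4 each, exact permutation test, two-sided, p = 0.2). That share holds next to nothing of mt-Co3, which was at 0 in all 8 tumours, or of mt-Co2 and mt-Atp6, which were below the filter on low counts.

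Interferon response genes were lower in part. Of 20 measured, 0 passed, 7 were lower and 0 higher at an unadjusted p under 0.05, 2 did not overlap, 18 were below 0 and the median was -0.44. Ifit2, an interferon-induced antiviral protein, was at 11.3, 28.6, 18.7 and 16.4 CPM without and at 13.9, 9.42, 6.21 and 9.64 CPM with exercise (-0.94 ± 0.28, adjusted p = 0.321, edgeR), with overlap. Ifit1 was at 14.2, 28.5, 14 and 13.6 CPM against 10.2, 8.57, 7.21 and 9.69 CPM (-0.98 ± 0.37, adjusted p = 0.453), with non-exercised tumour 2 highest. The count was 4 without non-exercised tumour 3 and 4 without exercised tumour 4. Non-tumour pieces had 5 of the 20 lower and 0 higher at an unadjusted p under 0.05, with a median of -0.36.

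Immune cell markers moved with single tumours. MHC class II genes had a median of -0.81 with all 8 measured below 0, but 1 was at an unadjusted p under 0.05, the class II activator Ciita (5.45, 4.16, 14.5 and 6.56 CPM against 4.72, 3.03, 3.05 and 2 CPM, -1.27 ± 0.38, adjusted p = 0.329, edgeR). The class II chain H2-Aa was at 73.1, 52.5, 172 and 80.8 CPM against 84, 61.4, 44.1 and 26.9 CPM (-0.81 ± 0.43, adjusted p = 0.621). Non-exercised tumour 3 held the highest level of the list (919 CPM summed, against 274 to 409 CPM in the rest of its arm), and without it the median was -0.33. The count of lower class II genes was 6 without non-exercised tumour 2 and without exercised tumour 1, 3 without non-exercised tumour 1, and 1 without each other tumour. The same tumour was highest for T and NK cell markers (23.4 CPM) and Kupffer cell markers (1020 CPM). Without it the median of the T and NK list went from -0.72 to 0.12 and that of the Kupffer list from -0.20 to 0.39, with 6 of 13 Kupffer genes higher at an unadjusted p under 0.05. In non-tumour pieces 7 of 8 class II genes were lower, with a median of -1.44. The part of these cells in the interferon result was not tested.

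The largest axis of variation among the 8 tumours did not separate the arms. The first principal component of the 8 tumours held 42% of the variance and placed mouse 1 of each arm at one end (-56.9 and -29.8) and mouse 3 at the other (48.6 and 48), with the arms interleaved. The second held 14.5%, with non-exercised tumours at 10.3 to 27.5 and exercised tumours at -31.6 to 3.8, so that the arms did not overlap on it. The genes of largest spread in the non-exercised arm were hepatocyte genes: the elongase Elovl3 was at 0.562, 7.9, 129 and 42.3 CPM without and at 6.59, 14.3, 138 and 56.6 CPM with exercise. Cyp7a1, the rate-limiting enzyme of bile acid synthesis, was at 0.169, 2.98, 40.6 and 18.6 CPM against 3.08, 9.19, 45.3 and 44.5 CPM. Mouse 3 was highest for both genes in each arm, and the log2 fold changes were 0.26 ± 0.97 and 0.71 ± 0.94.

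Cyp2c50, a cytochrome P450, and Fitm1, a lipid droplet protein, followed the same order in the non-exercised arm, at 0.73, 18.9, 117 and 47.8 CPM and at 0.112, 8.47, 29.4 and 21.3 CPM. The glutamine synthetase Glul, a pericentral marker and target of beta-catenin, was at 28.4, 279, 897 and 524 CPM without and at 182, 295, 1090 and 519 CPM with exercise, at 0.27 ± 0.63. In the exercised arm the largest spread belonged to Mup11, Slco1a1, Vmn2r3, Spink1 and Mup14, in that order. Mup11, a urinary protein of male liver, was at 21.4, 0.571, 81.5 and 9.01 CPM. The organic anion transporter Slco1a1 was at 18.6, 1.03, 86.4 and 2.26 CPM. Vmn2r3 was at 21, 6.68, 0.4 and 34.2 CPM and the trypsin inhibitor Spink1 at 92.3, 73.7, 3.85 and 3.69 CPM. Mup genes are near-identical copies, and their values are uncertain. The fetal protein Afp, named after its values were seen, was at 135, 297, 11.6 and 137 CPM without and at 782, 33.3, 57 and 71.9 CPM with exercise. Its log2 fold change of 0.70 ± 0.88 turned to -1.42 without exercised tumour 1.

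**Figure D5:**
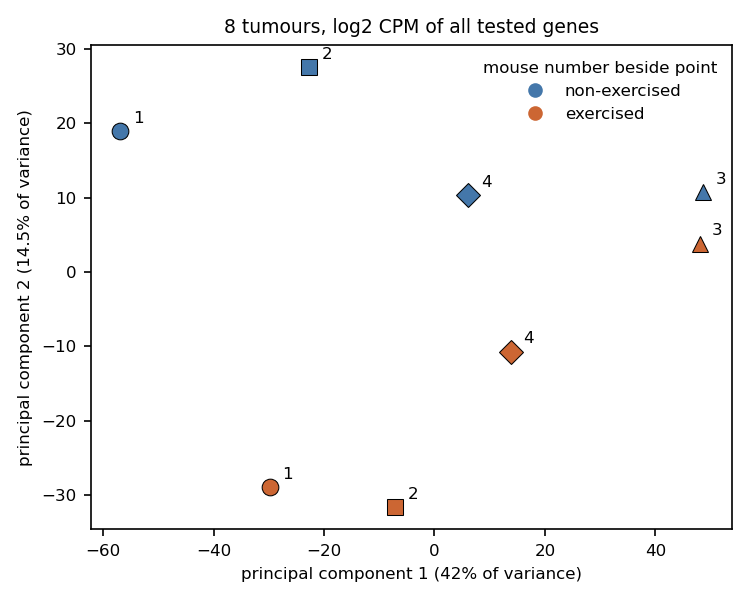
First and second principal component of log2 CPM in the 8 tumours, with mouse numbers beside the points. The first (42% of variance) runs from mouse 1 to mouse 3 in both the non-exercised (blue) and the exercised arm (orange), and the second (14.5%) separates the arms.

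Most remaining lists had few or no genes at an unadjusted p under 0.05. Of 18 genes of inflammation, senescence and pyroptosis 0 passed, and 4 were lower and 0 higher at that p (median -0.19). With 1 tumour left out, 1 to 4 of them were lower and 0 to 2 higher. Of 9 G1 cyclins and kinases 1 was higher and 2 lower, and of 19 glycolysis genes 2 were higher and 1 lower. Of 20 ATF4 and unfolded protein response genes 2 were higher and 0 lower, and 2 to 5 were higher with 1 tumour left out. Of 26 genes of fatty acid oxidation and of 15 of bile acid handling none was at an unadjusted p under 0.05 (medians 0.12 and 0.33), of 23 of cholesterol synthesis 1 was higher (0.17), and of 20 of fatty acid synthesis 2 were higher (median 0.02), Lpin1 among them. Bile acid genes had 4 higher without non-exercised tumour 3 and 2 without exercised tumour 1, with medians from -0.012 to 0.48 over the tumours left out. Fatty acid oxidation had 3 higher without exercised tumour 1 and 2 without non-exercised tumour 3, with medians from -0.017 to 0.245. The cholesterol count was 0 without non-exercised tumours 1 and 2 or exercised tumours 1 and 4 each. That of fatty acid synthesis was 1 without every tumour but exercised tumour 3, with 3 lower without non-exercised tumour 3. Of 28 tumour and oncofetal markers 1 was lower, Sox4, a progenitor transcription factor (-1.32 ± 0.40, adjusted p = 0.329, edgeR), and none higher (median -0.06), and of 22 stellate cell and fibroblast markers none (median -0.27). With 1 tumour left out, 1 to 3 tumour markers (3 without non-exercised tumour 3 or exercised tumour 1) and 0 to 3 stellate markers (3 without exercised tumour 2) were lower. The collagen gene Col3a1 was at 95.7, 140, 234 and 163 CPM against 136, 171, 99.2 and 58 CPM (-0.45 ± 0.42, adjusted p = 0.797, edgeR). Cholangiocyte and progenitor markers summed to 404 to 1520 CPM without and to 140 to 1500 CPM with exercise, a sum in which Spp1, a secreted matrix protein, took the larger part (1440, 678, 358 and 966 CPM against 1430, 760, 117 and 92.4 CPM).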

How the data were processed

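Polyadenylated RNA of 20 frozen liver pieces was sequenced, and 8 tumour libraries are compared here. Tools listed in the submitters' processing notes are STAR 2.7.11a, Trim Galore 0.6.10 and Subread 2.0.5, with GRCm39 as build. The deposited values are raw counts per gene from featureCounts 2.0.5 over exons of GENCODE M27 with strand setting 2, per the file headers, so that reads of a gene and of its antisense partner were counted apart. The headers name no option for reads that match several places, and near-identical genes may be under-counted.

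Of 55359 identifiers 52083 had a symbol in the name table used, and 135 that share one were left by identifier. Genes were kept by filterByExpr (minimum count 10, total 15), which left 14428. The quasi-likelihood model of edgeR 4.0.16 (R 4.3.3, TMM scaling, robust option) had 1 mean for each of 5 groups, used all 20 libraries and left 15 residual degrees of freedom. The groups were the tumour and the non-tumour pieces of each arm and the liver of non-exercised mice on the 12 kcal% fat diet. Tests were two-sided, with a threshold of 0.05 on p adjusted by Benjamini and Hochberg over all genes tested. Standard errors were derived from F, as the absolute log2 fold change over its square root. Levels in CPM use TMM-scaled totals. Tumour and non-tumour pieces of a mouse were not blocked. Libraries of an arm correlated at 0.934 to 0.979 in log2 CPM (prior count 2), and no pair was alike within sampling noise (lowest chi-square per gene 34.2). Within a group, mouse numbers in the titles mark separate animals. The edgeR p-values rest on the spread between libraries within all 5 groups, not on that of the tumours alone. In that spread the tumour and non-tumour piece of a mouse enter as separate libraries.

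The comparison, the 52 gene lists and the tests were chosen with earlier results of these data known. Named genes are the 10 of the series title, those called, the 20 of smallest p, of each list up to 4 called or the 2 most abundant, the 5 of largest spread in each arm at 10 CPM or more, and the 6 of smallest interaction p. Genes named as called or for a small p had a mean of at least 1 CPM over the 8 tumours, and clone names and provisional symbols were left out. Other list members named were chosen after their values were seen. Some genes that the rule names are not reported here. Alternatives were RLE and upper-quartile scaling, 2 filters, DESeq2 1.42.0, limma 3.58.1 (voom), a fit of the groups compared, a block on mouse number and leaving out each of 16 high-fat libraries. The model was tested on simulated counts. Promoters are from RefSeq (GRCm38.p6) and were matched by symbol.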

Additional observations from a re-analysis of the deposited data

Results flagged for a closer look

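In 12 of 202 groups of 4 libraries looked at, over 99 genes, 1 tumour stood far from the other three, by Dixon's criterion on the gap to its nearest neighbour. Chance gives about 1 in 20 such groups. Among non-exercised tumours, mouse 2 was apart for the clock repressor Bhlhe41 (0.308 CPM, lowest), for Lpin1 (140 CPM, highest), for the growth factor Pdgfd (1.49 CPM, lowest), for the chromatin remodeller Hells (7.34 CPM, highest) and for the interferon target Ifit1 (28.5 CPM, highest).

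Among exercised tumours, mouse 1 was apart for Per3 (22.6 CPM, highest), Dbp (111 CPM, highest), the fetal protein Afp (782 CPM, highest) and the complex I subunit Ndufs3 (49.3 CPM, lowest). Mouse 3 was apart for E2f2 (6.61 CPM, highest) and Mycn (9.96 CPM, highest), and mouse 4 for Tat (1700 CPM, highest). Without mouse 1 of the exercised arm, Dbp was at a log2 fold change of 2.05 and Afp at -1.42.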

How the results depend on the processing

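In tumours edgeR called 3 genes, but 1 with RLE scaling, 1 with upper-quartile scaling, 1 with a filter of 1 CPM in 4 libraries and 0 with only the tumours in the fit (809 genes at an unadjusted p under 0.05). DESeq2 called 79. Leaving out 1 of the 16 high-fat libraries gave 0 to 41 calls, most without exercised tumour 3. In non-tumour pieces the 2 calls became 1 without a filter, 0 with only those groups, 0 with voom, 107 with DESeq2 and 0 to 72 with 1 library left out, most without exercised non-tumour piece 3. The interaction gave 0 under every alternative run. The difference in the Alb share of counts (0.316 percentage points) lay between -0.921 and 1.36 with 1 tumour left out. E2f1 was at -0.004 with upper-quartile scaling and between -0.068 and 0.09 with 1 library left out, Alb between -0.022 and 0.34, Elovl3 between -0.815 and 1.664, Afp between -1.422 and 1.302 and Glul between -0.395 and 0.907. The cause of these changes was not tested. Depth limits genes under 1 CPM, such as Ciart.

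With the mouse number as a replicate block and only the groups compared, 0 genes were called in tumours (1326 at an unadjusted p under 0.05), 0 in non-tumour pieces (927) and 0 in the interaction. The numbers of the arms belong to different mice. Same-numbered tumours of the arms had correlations of deviations from 0.03 to 0.57, and others from -0.6 to 0.25, and 5 of 8 tumours correlated best with their own number. Because they belong to different mice, the numbers were not taken to pair the samples. Besides, 1 of the 4 same-numbered pairs, that of mouse 4, was at 0.03, under the 0.1 asked of every pair. A block on each of the 8 mice, and the list counts without each tumour, were chosen after seeing the data, and the former called 0 genes in the interaction.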
